A study of Homo sapiens with 2 samples.

Results

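The genes described here are NFE2L2, which encodes the transcription factor NRF2, and 8 genes around it, measured by RNA-seq in C28/I2, a chondrocyte line made from human cartilage cells by immortalization. They are KEAP1 and CUL3, whose products mark NRF2 for degradation, the related factors NFE2L1 and NFE2L3, the small MAF partners MAFF and MAFK, and AC079305.1 and AC073052.2, non-coding genes annotated on the strand opposite NFE2L2 and CUL3. The 9 genes, of 58220 in the deposited tables, were chosen by name, with their counts and FPKM already known. Their levels in the 2 libraries are therefore a description and support no test.

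NRF2 is a leucine zipper factor of the cap'n'collar (CNC) family that binds antioxidant response elements as a dimer with a small MAF protein and switches on genes of glutathione synthesis, quinone reduction and iron storage. In unstressed cells KEAP1 holds NRF2 for the ubiquitin ligase built on the scaffold CUL3, and oxidants that modify KEAP1 let NRF2 accumulate. Because this control acts on the protein, the RNA of NFE2L2 and KEAP1 need not follow NRF2 activity. NFE2L1 and NFE2L3 are CNC factors of the same family, and NFE2L1 is best known for raising proteasome genes when proteasomes fail. MAFF and MAFK lack a transactivation domain of their own.

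The shvoid library came from C28/I2 cells infected with control lentivirus, and the shFGF9-D1 library from cells infected with the FGF9 hairpin D1, so both carried a lentivirus, given at a multiplicity of infection of 10. The labels give the shvoid genotype as WT and the shFGF9-D1 genotype as FGF9 knock down, list no further treatment for either, and place RNA isolation at 72 hours. There was 1 library per condition and 1 hairpin, so no difference between the libraries had a replicate check. FGF9 depletion and any other difference between the 2 cultures cannot be told apart. The libraries were made to ask which genes respond to loss of FGF9, in a study of chondrocyte senescence.

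The estimated counts summed to 519192 in shvoid and 502774 in shFGF9-D1, where 14247 and 13561 genes had a count. FGF9 itself had 0 counts in each library, so the knockdown was not visible at this depth. The floor of 3 counts used here stood at 5.78 and 5.97 CPM (counts scaled to library size). Of 16 chondrocyte markers, 10 had a count and 3 reached 10 counts (MATN1, PRG4 and CHAD), with 57 counts over the list in shvoid and 45 in shFGF9-D1. SOX9 had 2 and 1 counts and COL2A1 had 0 in both, so the labelled cell type rested on few reads. Of 15 markers of other cells, 8 had a count. The 3 that reached 10 were the fibroblast marker COL1A1 (19 and 26) and the keratins KRT18 (12 and 14) and KRT8 (409 and 410). The other epithelial markers, EPCAM and CDH1, had 0 in both libraries. The library kit marked strand, but the sources used here do not say with which strand setting reads were counted. The counts of a gene and of a gene opposite to it therefore cannot be assigned with certainty. That limit holds for MATN1, PRG4, CHAD, KRT8 and KRT18, which each share exon bases with an opposite-strand gene.

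The 2 antisense genes are shown first, since they held 127 of the 226 counts of the 9 genes in shvoid (56.2%) and 126 of 255 in shFGF9-D1 (49.4%). AC079305.1 (ENSG00000222043, plus strand of GRCh38, chr2:177264359-177265515) is a 499-base spliced RNA that starts in an intron of NFE2L2 and runs outwards into the first coding exon of NFE2L2, which holds the start of the NRF2 reading frame. Its first exon is 363 bases long, and the last 190 of these lie opposite exon sequence of NFE2L2, namely 45 bases of coding sequence and 145 bases of 5′ untranslated region (UTR). Its second exon starts 248 bases beyond the 5′ end of that NFE2L2 exon. The first line below gives its first exon up to the last base opposite NFE2L2 coding sequence (chr2:177264359-177264576, plus strand, 5′ to 3′), with the 45 bases opposite NRF2 coding sequence in capitals, and the second its other exon (chr2:177265380-177265515), which shares nothing with NFE2L2. The last line is the outermost first exon of AC073052.2 (chr2:224464682-224464922, plus strand), which lies 5227 bases beyond the 3′ end of CUL3. The sequences are from GENCODE release 29 on GRCh38, and they are shown because, apart from the capitals, they are stretches of the antisense RNAs that lie opposite no exon of the partner gene.
AC079305.1 exon 1, first part: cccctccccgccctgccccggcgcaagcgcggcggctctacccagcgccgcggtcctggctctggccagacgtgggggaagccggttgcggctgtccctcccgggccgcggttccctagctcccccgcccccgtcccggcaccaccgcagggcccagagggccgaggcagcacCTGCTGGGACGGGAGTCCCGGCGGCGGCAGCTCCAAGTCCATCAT
AC079305.1 exon 2: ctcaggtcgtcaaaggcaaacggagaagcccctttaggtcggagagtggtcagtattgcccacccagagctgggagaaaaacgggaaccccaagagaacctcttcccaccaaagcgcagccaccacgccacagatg
AC073052.2 exon 1: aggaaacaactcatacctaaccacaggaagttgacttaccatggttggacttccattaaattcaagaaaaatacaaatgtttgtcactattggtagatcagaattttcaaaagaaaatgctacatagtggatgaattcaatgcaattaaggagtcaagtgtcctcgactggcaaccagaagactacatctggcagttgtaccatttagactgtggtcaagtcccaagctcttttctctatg

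AC073052.2 (ENSG00000274629, plus strand, chr2:224464682-224474500) overlaps the opposite end of its partner. Of its 1016 exon bases, 598 (58.9%) lie opposite exons of CUL3 in 2 blocks of 202 and 396 bases, all of it annotated as UTR in at least 1 CUL3 transcript with 129 of these bases also coding in some transcript. The shared bases are 38.1% of AC079305.1 but 3.18% of NFE2L2, and 5.20% of CUL3.

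**Figure D1:**
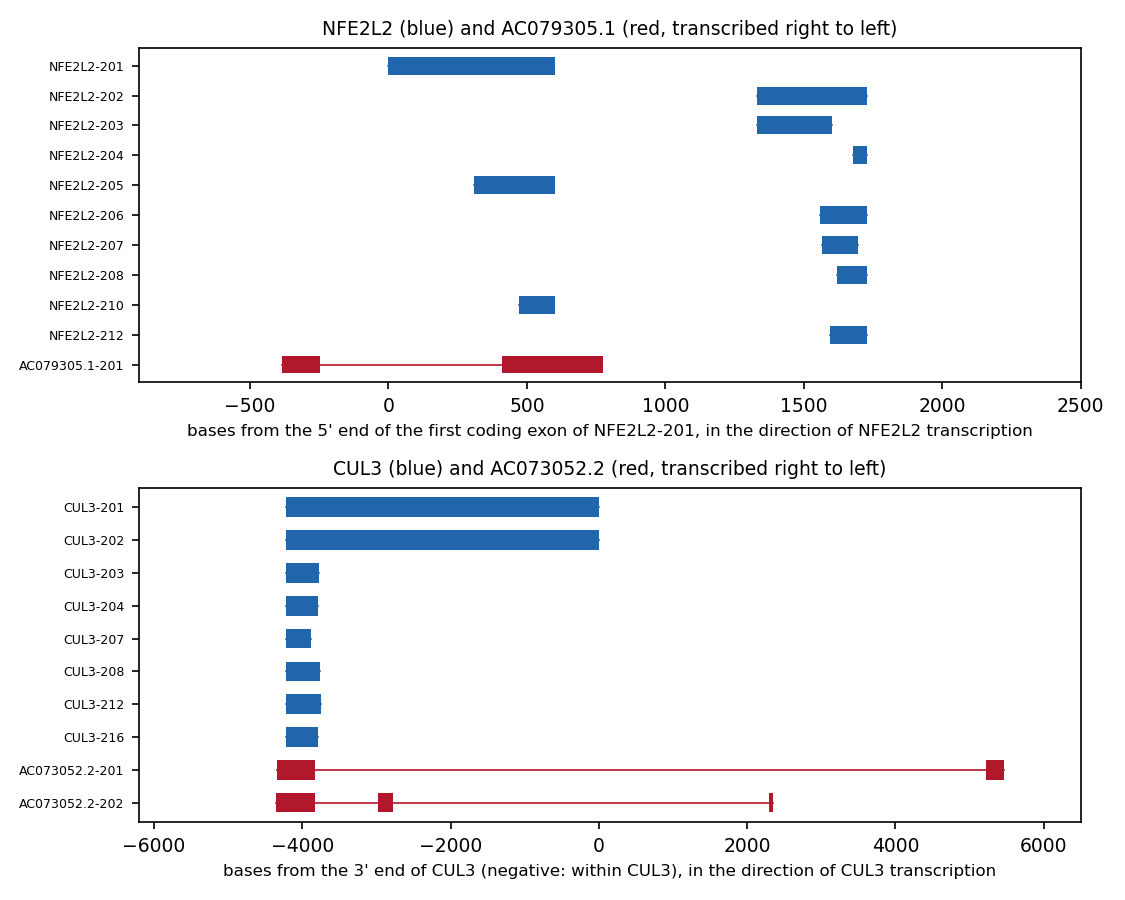
Exons (boxes) and introns (lines) of NFE2L2 with AC079305.1, and of CUL3 with AC073052.2, from GENCODE release 29. The horizontal axes give bases from the 5′ end of that first coding exon of NFE2L2 and from the 3′ end of CUL3, and introns of coding transcripts that leave the window are not drawn. AC079305.1 shares 190 bases with the first coding exon of NFE2L2, and AC073052.2 shares 598 bases with exons near the 3′ end of CUL3.

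NFE2L2 was close to the limit of counting, and the RNA opposite its first coding exon was counted more often than NFE2L2 in each library. NFE2L2 (ENSG00000116044, minus strand, chr2:177227595-177392697) was at 7 counts in shvoid, or 13.5 CPM with an exact Poisson interval of 5.42 to 27.8, and at 6 in shFGF9-D1, or 11.9 CPM (4.38 to 26.0). The ranges overlap almost entirely. The shFGF9-D1 to shvoid ratio was 0.907, with a 95% interval for counting error from 0.252 to 3.15. As in any bulk RNA, fewer cells that express a gene and less RNA per cell cannot be told apart.

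AC079305.1 was at 52 counts in shvoid and 34 in shFGF9-D1, that is 100 CPM (74.8 to 131) and 67.6 CPM (46.8 to 94.5). It was lower in the shFGF9-D1 library by 0.53 on the log2 scale, with an interval from 1.20 lower to 0.12 higher, so a difference was not detectable at these counts. NFE2L2 also shares 54 bases with AGPS, which had 0 counts in both. Since reads of a pair cannot be assigned to a strand with certainty, the pair was also summed, and NFE2L2 with AC079305.1 and AGPS came to 59 counts in shvoid and 40 in shFGF9-D1 (log2 ratio -0.48, interval -1.10 to 0.12). NFE2L2 made up 11.9% and 15.0% of these sums.

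The depth and the minimum of 10 counts set what could have been called in NFE2L2. The rule used for all genes called a difference where either library had 10 counts, the ratio reached 2-fold and its interval left out equal levels. By it, 7 counts in shvoid would have needed 17 or more in shFGF9-D1 to be called higher. Because of the minimum of 10 counts, and whatever the interval, no count in shFGF9-D1, not even 0, could have been called lower. For AC079305.1, 24 counts or fewer would have been called lower.

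KEAP1 and CUL3, the substrate adaptor and the scaffold of the ligase, were counted less often still. KEAP1 (ENSG00000079999, minus strand, chr19:10486120-10503741) had 2 counts in shvoid, 3.85 CPM (0.467 to 13.9), and 4 in shFGF9-D1, 7.96 CPM (2.17 to 20.4), and shares no exon with an opposite-strand gene. CUL3 (ENSG00000036257, minus strand, chr2:224470150-224585397) had 4 counts in shvoid, 7.70 CPM, and 1 in shFGF9-D1, 1.99 CPM, and 1 count has an exact Poisson interval from 0.0253 to 5.57. The intervals of their ratios were wide, from 0.303 to 23.4 for KEAP1 and from 0.00537 to 2.67 for CUL3. AC073052.2, opposite CUL3, was the best counted of the 9 genes, at 75 counts (144 CPM, 114 to 181) in shvoid and 92 (183 CPM, 148 to 224) in shFGF9-D1. Its log2 ratio was 0.38, with an interval from -0.08 to 0.84 that includes equal levels. The 2 antisense RNAs thus had point ratios of opposite sign, and neither interval excluded equal levels. Summed, CUL3 and AC073052.2 gave 79 and 93 counts (log2 ratio 0.32, interval -0.13 to 0.77), and CUL3 supplied 5.06% and 1.08% of them.

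Of the other CNC factors, NFE2L1 had more counts in the shFGF9-D1 library and NFE2L3 had equal counts. NFE2L1 (ENSG00000082641, plus strand, chr17:48048329-48061487) was at 6 counts in shvoid, 11.6 CPM (4.24 to 25.2), and 14 in shFGF9-D1, 27.8 CPM (15.2 to 46.7). The log2 ratio of 1.30 had an interval from -0.17 to 2.97, so the gene did not pass the rule, which would have needed 16 counts. AC004477.2 (ENSG00000266341, minus strand, chr17:48060383-48060669), annotated as antisense, has 192 exon bases, all of which lie opposite UTR of NFE2L1. It had 0 counts in shvoid and 4 in shFGF9-D1, and the exact interval of its log2 ratio reached down to -0.52, which includes equal levels. The sum of NFE2L1 and AC004477.2 was 6 against 18, a log2 ratio of 1.67 (interval 0.27 to 3.29), and it passed the rule. NFE2L3 (ENSG00000050344, plus strand, chr7:26152240-26187125) had 21 counts in each library, 40.4 CPM (25.0 to 61.8) and 41.8 CPM (25.9 to 63.8). Its interval reached from a log2 ratio of -0.86 to 1.03, and it shares no exon with a gene on the other strand. HNRNPA2B1, which overlaps NFE2L3 on that strand without sharing exon bases, was at 66 and 68 counts.

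Of the 4 sums of a coding gene and its opposite-strand partners, the sum at NFE2L1 was the only one past the rule. Among 3525 such sums over all coding genes with a partner that reached 10 counts, 3.04% were higher by the same rule and 3.32% lower. The 4 counts of AC004477.2 decided the call, since NFE2L1 alone did not pass. At 6 counts in shvoid, the sum was eligible only through shFGF9-D1, so it could be called higher but not lower.

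The small MAF genes differed in how often they were counted, and both had higher point values in the shFGF9-D1 library. MAFF (ENSG00000185022, plus strand, chr22:38200767-38216511) was at 9 counts in shvoid, 17.3 CPM (7.93 to 32.9), and 19 in shFGF9-D1, 37.8 CPM (22.8 to 59.0). Its ratio was 2.23, with an interval from 0.963 to 5.61, and 20 counts would have been called. It shares no exon with an opposite-strand gene. MAFK (ENSG00000198517, plus strand, chr7:1530714-1543043) was the best counted coding gene of the group, at 50 counts (96.3 CPM, 71.5 to 127) and 64 (127 CPM, 98.0 to 163). TMEM184A, a membrane protein gene whose 3′ end lies opposite MAFK, shares 809 bases of UTR with it, or 18.1% of the exon bases of MAFK. TMEM184A was at 205 counts in shvoid and 178 in shFGF9-D1 (log2 ratio -0.12, interval -0.42 to 0.17). Summed, MAFK and TMEM184A gave 255 and 242 counts, a log2 ratio of 0.01 (interval -0.25 to 0.27), so the pair as a whole differed by less than its counting error. MAFK supplied 19.6% and 26.4% of these sums, so they say little about MAFK alone.

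**Figure D2:**
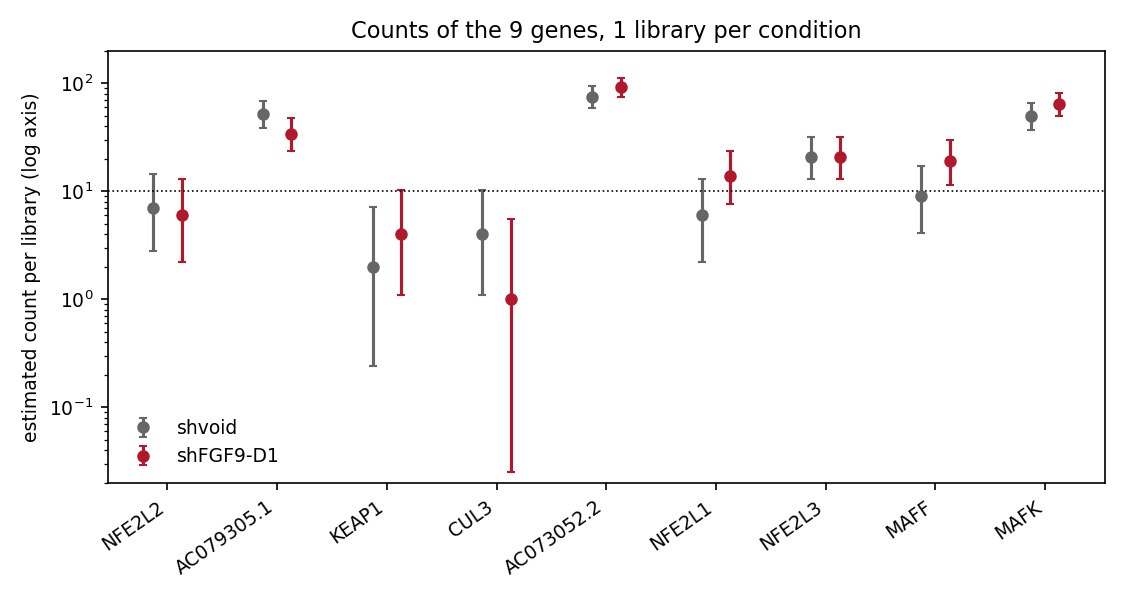
Estimated counts of the 9 genes in the shvoid (grey) and shFGF9-D1 (red) libraries, 1 library each and not scaled, on a log axis. Bars give the exact Poisson 95% interval for the counting error of each value, and the dotted line marks 10 counts. AC079305.1 (52 and 34), AC073052.2 (75 and 92) and MAFK (50 and 64) stand above the other 6 genes, and the intervals of the 2 libraries overlap for every gene.

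Counts per kb of annotated exon, with the exons of all transcripts of a gene merged, allow levels to be set roughly beside each other. Merging lowers the values of genes with many transcripts. NFE2L2 has 5979 merged bases against 2853 in its longest transcript, and CUL3 has 11505 against 6741. AC079305.1, with 1 transcript, has 499 either way. The intervals cover counting error only. In shvoid AC079305.1 was at 104 counts per kb (77.8 to 137) and AC073052.2 at 73.8 (58.1 to 92.5), whose intervals overlap. MAFK followed at 11.2 (8.32 to 14.8) and NFE2L3 at 4.94 (3.06 to 7.55), each apart from its neighbours, though NFE2L3 only just from MAFF at 1.60 (0.733 to 3.04). MAFF, NFE2L2 at 1.17, NFE2L1 at 1.03, KEAP1 at 0.532 and CUL3 at 0.348 counts per kb had intervals that overlapped in turn. In shFGF9-D1 the antisense genes came first again, with AC073052.2 at 90.6 and AC079305.1 at 68.1 counts per kb, and MAFK next at 14.4 (11.1 to 18.3). There MAFF at 3.38 (2.04 to 5.28) was no longer apart from NFE2L3 at 4.94. CUL3 was lowest, at 0.0869 counts per kb. FPKM gave another order of the coding genes. In shvoid NFE2L2 at 26.5 FPKM and NFE2L3 at 25.6 stood above MAFK at 14.5, and CUL3 at 6.13 above MAFF at 4.92. In shFGF9-D1, NFE2L3 at 33.7 FPKM again stood above MAFK at 21.0.

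By the count rule, none of the 9 genes was called, and 6 of them had enough counts to be eligible (AC079305.1, AC073052.2, NFE2L1, NFE2L3, MAFF and MAFK). NFE2L1 and MAFF, at 6 and 9 counts in shvoid, were eligible only through shFGF9-D1. With these shvoid counts they could have been called higher but not lower. Over the 4000 eligible genes of the table, 4.70% (188) were called higher and 5.38% (215) lower, or 148 and 257 genes with DESeq2 size factors. By size alone, NFE2L1, MAFF and KEAP1 were over 2-fold higher and CUL3 over 2-fold lower in point value, all with intervals that include equal levels. With no minimum on counts the rule again called 0 of the 9.

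The FPKM table, made by the authors from the same reads, gave a different picture for the least counted genes. NFE2L2 was at 26.5 FPKM in shvoid and 7.33 in shFGF9-D1 while its counts were 7 and 6. CUL3 was at 6.13 and 0.514 FPKM, a log2 FPKM ratio of -3.58 against a log2 count ratio of -1.92. KEAP1 was at 1.57 and 5.86 FPKM, with log2 ratios of 1.90 from FPKM and 1.08 from counts. In these genes the tables differed most, and for NFE2L2 the FPKM was lower in shFGF9-D1 where the counts differed by 1.

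The other 6 genes had like ratios in both tables. NFE2L1 was at 6.68 and 17.9 FPKM, MAFF at 4.92 and 12.7, and MAFK at 14.5 and 21.0, each higher in shFGF9-D1 as in the counts. NFE2L3 was at 25.6 and 33.7 FPKM. AC079305.1 was at 163 and 116 FPKM, and AC073052.2 at 525 and 585. Their log2 FPKM ratios lay between 0.22 below and 0.31 above their log2 count ratios.

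**Figure D3:**
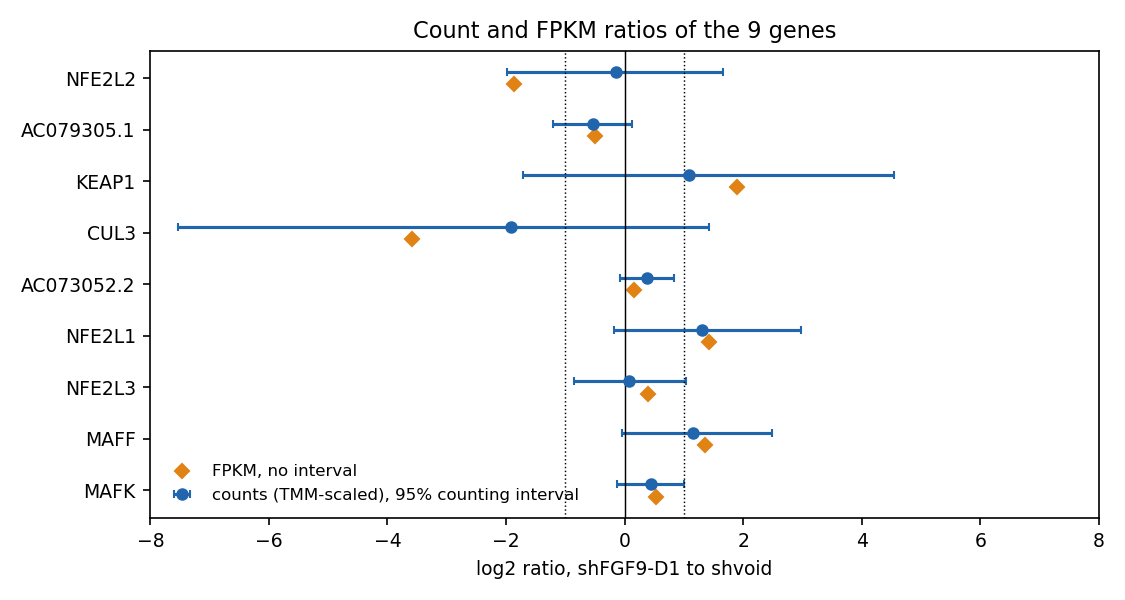
Log2 ratio of shFGF9-D1 to shvoid for each of the 9 genes from TMM-scaled counts (blue circles, with exact 95% intervals for counting error) and from FPKM (orange diamonds, no interval), 1 library per condition. The solid line marks equal levels and dotted lines mark 2-fold. Each FPKM ratio lies inside the count interval of its gene, and NFE2L2, at -1.86 from FPKM and -0.14 from counts, shows the widest gap between the tables.

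On the scale of log2(FPKM + 1), differences of at least 1 were found for NFE2L1 (1.30), MAFF (1.21) and KEAP1 (1.41) as higher and for NFE2L2 (-1.72) and CUL3 (-2.24) as lower. Of 14949 genes with at least 1 FPKM in a library, 23.2% were higher and 28.2% lower by this 2-fold limit, which stands beside 3 higher and 2 lower among 9 genes chosen with these values known. Every FPKM ratio of the 9 lay inside the interval from counting error of its count ratio. For NFE2L2 the log2 FPKM ratio of -1.86 stood just inside the lower bound of -1.99. Over the 9505 genes with counts between 1 and 92 in both libraries, the range of the 9, the FPKM ratio was inside for 98.4%. Both tables come from the same reads and intervals at low counts are wide, so lying inside does not measure how well the tables match.

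How many counts stood behind 1 FPKM shows where the tables part. For NFE2L2 this was 0.264 counts in shvoid and 0.819 in shFGF9-D1, 3.10-fold more within 1 gene. For CUL3 it differed 2.98-fold, 0.653 against 1.95, and for KEAP1 it was 1.27 and 0.683. For AC079305.1 it was 0.319 and 0.292, and for MAFK 3.44 and 3.04. NFE2L2 has 14 annotated transcripts of 451 to 2853 bases, CUL3 has 16 of 404 to 6741 bases and KEAP1 has 10 of 451 to 2955 bases, while AC079305.1 has 1. NFE2L1, with 23 transcripts, had 0.898 and 0.784, so many transcripts did not go with a gap in every gene.

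Over all genes in the same range of counts, the gap between the tables went with the number of annotated transcripts. A gap of over 2-fold between the FPKM ratio and the count ratio was found in 0 of 2169 genes with 1 annotated transcript, in 14.1% of 4427 genes with 2 to 9, and in 25.9% of 2886 genes with 10 or more. Among 749 genes with 10 or more transcripts and counts within 2-fold of those of NFE2L2 in both libraries, the share was 19.8%. The gap of NFE2L2 (-1.71 on the log2 scale) was matched or exceeded in size by 82 of 2206 genes (3.72%) of like counts, and that of CUL3 (-1.66) by 9.72% of 2016. The part that the choice of transcripts had in the NFE2L2 values was not tested, since transcript values were not used here. With at least 100 counts in both libraries, 0 of 680 genes had such a gap.

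**Figure D4:**
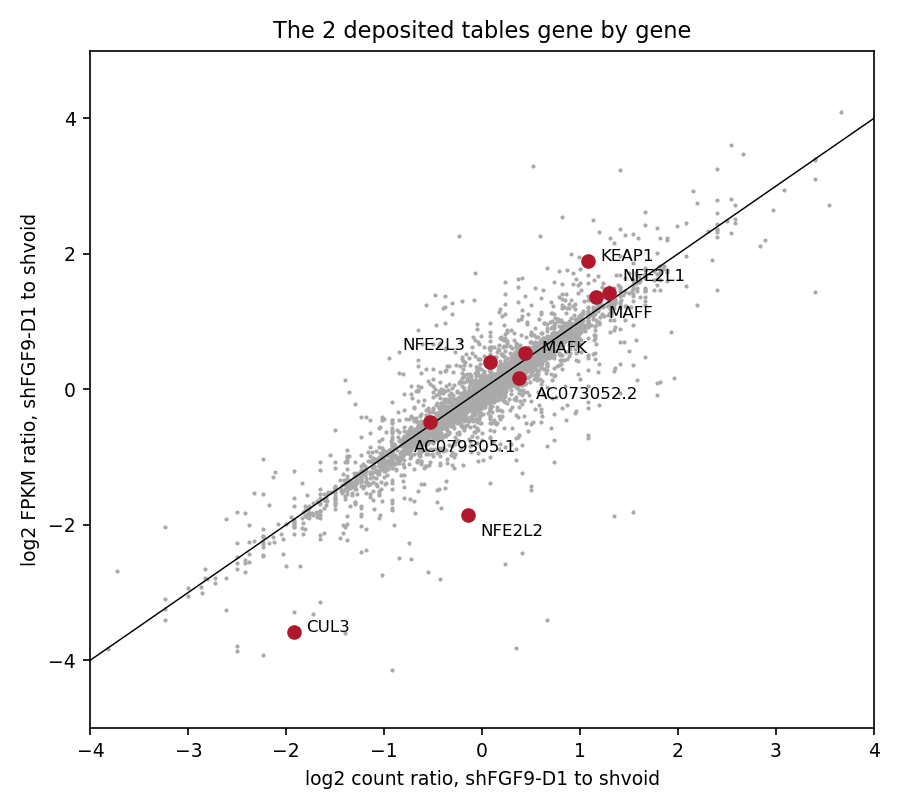
Log2 FPKM ratio against log2 count ratio (shFGF9-D1 to shvoid), with 1 library each, for genes that reached 10 counts in a library and had values above 0 throughout (grey), with the 9 genes in red. The line marks equal ratios. NFE2L2 and CUL3 lie below the line by 1.71 and 1.66, KEAP1 above it by 0.81, and the other 6 genes close to it.

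The wider pathway was thinly counted too, where over the whole data 4000 of 17422 genes with a count reached 10. Its gene lists were written with earlier results of these data known. Of 6 CNC and BACH genes, NFE2, BACH1 and BACH2 had 0 counts in both libraries. Of 7 MAF family genes, 5 had a count, and 3 reached 10, MAFF, MAFK and the retinal factor NRL at 15 and 14. NRL shares 293 exon bases with DCAF11 on the opposite strand (10 and 4 counts), so the strand behind its counts is uncertain. Of 25 regulators and partners of NRF2, 24 had a count and 4 reached 10, of which none was called (all eligible genes 4.70% higher and 5.38% lower). Among these were CHD6, a chromatin remodeller, at 22 counts in shvoid and 11 in shFGF9-D1 (log2 ratio -0.92, interval -2.11 to 0.19), and GSK3A, a kinase that marks NRF2 for another ligase, at 26 and 24. Of 36 NRF2 targets, 26 had a count, and UGDH, FTH1 and TKT alone reached 10. With so few eligible targets, 0 were called, beside those same shares of all eligible genes. TKT, transketolase of the pentose phosphate pathway, was at 11 and 12 counts, and UGDH, which makes UDP-glucuronate, at 8 and 14. FTH1, the ferritin heavy chain that stores iron, was at 14 and 8, and BEST1, which lies opposite and shares 1267 exon bases with it, was at 1195 and 1460. The part of the strand setting in the counts of such pairs was not tested. The summed counts of the target list were 79 in shvoid and 72 in shFGF9-D1, and 3 targets were over 2-fold higher and 6 over 2-fold lower in FPKM, of 20 with at least 1 FPKM (all genes 23.2% and 28.2%).

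Among 42 genes of cullin-RING ligases and the NEDD8 cycle that activates them, 35 had a count, 6 reached 10, 1 was called higher and 0 lower (all eligible genes 4.70% and 5.38%). The gene called was COPS8, a subunit of the COP9 signalosome that removes NEDD8 from cullins, at 8 counts in shvoid and 22 in shFGF9-D1 (log2 ratio 1.54, interval 0.32 to 2.92). COPS8 was eligible only through shFGF9-D1, so it could be called higher but not lower. GPS1, another subunit of that complex, was at 38 and 67 (log2 ratio 0.90, interval 0.30 to 1.51), COPS6 at 13 and 18, and the scaffold CUL1 at 16 and 29 (log2 ratio 0.94, interval 0.01 to 1.92). The rest of the 6 were close to equal levels, CUL5 at 15 and 15 counts (log2 ratio 0.08, interval -1.05 to 1.22) and CAND2 at 132 and 119. CAND2, the best counted of the list, had a log2 ratio of -0.07 (interval -0.44 to 0.30). The 6 had a median of 0.73 in log2 ratio, against 0.04 over all 4000 eligible genes. COPS8 shares 506 bases with AC105760.2 on the opposite strand (1 and 7 counts) and GPS1 shares 835 with RFNG (4 and 3). CUL1 shares 385 with AC005229.4, which had 0 counts in both libraries. The strand behind these counts is uncertain too. For CUL5 and CAND2 such overlap was not looked up, so the strand behind their counts is also uncertain.

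Of 13 genes that process or regulate NFE2L1, 5 reached 10 counts, 1 was called higher and 1 lower, beside 4.70% and 5.38% of all eligible genes. The higher gene was HCFC1, a co-regulator that binds NFE2L1, at 47 counts in shvoid and 110 in shFGF9-D1 (log2 ratio 1.31, interval 0.80 to 1.83). The lower gene was VCP, the ATPase that draws NFE2L1 out of the endoplasmic reticulum, at 12 and 2 (log2 ratio -2.50, interval -5.70 to -0.34). VCP was eligible only through shvoid, so it could be called lower but not higher. UBQLN1, a ubiquitin shuttle factor, was at 18 and 34 counts (log2 ratio 1.00, interval 0.13 to 1.91), and STUB1, a ubiquitin ligase, at 106 and 109. The 38 genes of the proteasome list, a group with known targets of NFE2L1, had 663 counts in shvoid and 537 in shFGF9-D1. The 12 that reached 10 had log2 ratios with a median of -0.06. Of these 12, 1 was called higher, PSMA1 (1 and 10 counts, log2 ratio 3.40, interval 0.59 to 8.84), and 0 lower. PSMA1 was eligible only through shFGF9-D1, so it could be called higher but not lower. PSMB7 was at 27 and 13 counts (log2 ratio -0.97, interval -2.05 to 0.03), PSMC5 at 26 and 14, and PSMA7 at 8 and 13. PSMA3 (158 and 110 counts, log2 ratio -0.44, interval -0.81 to -0.08) and PSMD6 (102 and 61, log2 ratio -0.66, interval -1.14 to -0.19), named after their values were seen, were lower by less than 2-fold with intervals below equal levels. Other well-counted subunits were near equal levels. PSMC1, the best counted, was at 170 and 149 (log2 ratio -0.11, interval -0.44 to 0.22), and PSMD7 at 68 and 64 (log2 ratio -0.01, interval -0.52 to 0.51). HCFC1, VCP, PSMA1, PSMB7 and PSMA7 share no exon with an opposite-strand gene, while UBQLN1, STUB1 and PSMC5 do. For PSMA3, PSMC1, PSMD6 and PSMD7 such overlap was not looked up, so the strand behind their counts is uncertain.

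The promoters of the coding members were searched for the core of the antioxidant response element, TGACNNNGC, on both strands, in RefSeq windows of GRCh38.p14 from 250 bases before to 50 after each start. Windows were given for 6 of the 9 genes, 11 windows in all. MAFF had 1 match and KEAP1 had 2, each in 1 of its windows, and the windows of NFE2L2, CUL3, NFE2L1 and NFE2L3 had none. Of all 35116 windows, 13.3% held a match, against 2 of these 11. A match describes letters, not a site.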

How the data were processed

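RNA-seq of 2 libraries of C28/I2 cells was used, 1 per condition, grouped by sample title. The submitters' processing notes name the build GRCh38.p14 and, with no order, Cuffdiff, Cufflinks 2.2.1, HISAT2 and bcl2fastq 2.1.7. Strand setting and filters were not given in the sources read. Deposited by the authors were estimated counts per gene, not scaled between libraries, and FPKM per gene, scaled by transcript length and library size. Counts were rounded to whole numbers (at most 0.00014 for the 9 genes) and scaled by TMM over the whole table (edgeR 4.0.16, R 4.3.3). The factors were 1.01 for shvoid and 0.988 for shFGF9-D1.

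Ratios were given exact Clopper-Pearson 95% intervals and single counts exact Poisson 95% intervals (scipy 1.17.1). Both cover counting error only, and reads without molecular identifiers are not independent molecules. A gene was called where either library had 10 counts, the ratio reached 2-fold and its interval left out equal levels. Where neither count was above 3, the fold was left out. FPKM, whose depth per value is unknown, were compared as log2(FPKM + 1), which understates changes of low genes, or as plain ratios. Without replicates no p-value was computed.

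Coordinates, transcripts and exon overlaps came from GENCODE release 29 (GRCh38), which matched 57882 of 58220 identifiers. The named genes are the 9, the genes sharing exon with them on the opposite strand, and in each list the 4 largest ratios among genes with 10 counts. HNRNPA2B1, CUL5, CAND2, PSMA3, PSMC1, PSMD6, PSMD7, BEST1, other opposite-strand partners of list genes and the marker and family genes at or near 0 were named after their values were seen. The 9 genes and the lists were chosen with earlier results of these data known. Alternatives were total counts and DESeq2 1.42.0 size factors, other count minimums, a pseudocount of 0.1 and no FPKM minimum.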

Additional observations from a re-analysis of the deposited data

How the results depend on the processing

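None of the 9 genes passed the count rule when libraries were scaled by total counts or DESeq2 size factors, with a minimum of 5 counts or with none, and 3 higher and 2 lower were found in FPKM with a pseudocount of 0.1 or no minimum. The sum of NFE2L1 and AC004477.2 passed the rule under all 3 scalings (log2 ratio 1.67, 1.63 and 1.58), and the other sums under none. The difference of CUL3 on the log2 FPKM scale was -2.24 and became -3.34 with a pseudocount of 0.1, where its shFGF9-D1 value is 0.514 FPKM. The log2 ratio of MAFK summed with TMEM184A, 0.01, was -0.03 with total counts and -0.08 with DESeq2 size factors. No paired analysis was possible because each condition had 1 library, which also left no replicate to leave out. Depth was a limit, since NFE2L2, KEAP1 and CUL3 had at most 7 counts in a library.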

Other observations

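A gene that lies in the same locus of the deposited tables as MAFF, without sharing exon bases with it, was noted after its values were seen. AL022322.2, on the strand of MAFF, was at 25 counts in shvoid and 16 in shFGF9-D1 (log2 ratio -0.56, interval -1.57 to 0.40), while MAFF was at 9 and 19. The intervals of both include equal levels. AC004477.2, at 4 counts in shFGF9-D1, was listed at 325 FPKM there and at 0 in shvoid, more FPKM than NFE2L1 at 17.9, which had 14 counts.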
